A study of Saccharomyces cerevisiae with 28 samples.

Results

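The CLB2 cluster is the set of budding yeast genes whose transcripts peak together from the end of G2 into mitosis. The probe sets whose platform gene symbol was CLB1, CLB2, SWI5, CDC5, CDC20, BUD4, ALK1, HST3 or MYO1 were taken as its members. These were 9 genes of the 5656 with a probe set of their own, and 21 probe sets of the 9274 tested. BUD4 had 6 probe sets and MYO1 had 8, and each of the other 7 genes had 1. A gene with several probe sets was described by the one with the highest mean level. Those of BUD4 and MYO1 are of a kind (identifiers ending in s_at) that can share sequence with relatives, so both genes are uncertain here.

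Transcription of the cluster depends on the MADS-box protein Mcm1 and the forkhead protein Fkh2 at the promoters, joined in late G2 by the coactivator Ndd1. Clb2 bound to the kinase Cdc28, and the polo kinase Cdc5, phosphorylate these regulators and so raise the transcription of their own genes. The products drive the cell into and through mitosis, and Swi5, itself a product of the cluster, then switches on the next wave of genes at the border of mitosis and G1.

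The levels came from 28 Affymetrix arrays of Saccharomyces cerevisiae in log phase, given on a log2 scale. BY, a laboratory strain with the S288C genome, and RM, a strain isolated from a vineyard, were each measured as haploids and as diploids, with 3 arrays in each of these 4 groups. Diploid BY by RM hybrids gave 6 arrays and mixtures of equal parts of BY and RM mRNA gave 6. Segregants of the cross, and diploid hybrids made by mating segregants, gave 2 arrays each. The labels give no ploidy for the mixtures or the segregants, and no mating types, auxotrophic markers or batches for any group. They do not say whether the 2 arrays of a segregant group are 1 genotype, so those arrays are given as single values. Whether the replicates of a group were grown apart is not stated either, and a p-value here is set against array-to-array spread that may be technical. The cultures were not synchronised by any step the labels name. A lower level in such a culture can come from fewer cells in mitosis or from less RNA per mitotic cell, and these cannot be told apart.

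The mean log2 level of 4 haploid-specific genes (GPA1, FAR1, STE4 and STE18) lay between 8.80 and 9.04 in BY haploids and between 6.36 and 6.57 in hybrids, and the mixtures and segregants stood with the haploids. The 5 genes specific to a cells were high in RM haploids and mixtures, and the 4 specific to alpha cells were high in BY haploids, mixtures and segregants. Strain and mating type therefore cannot be told apart among the haploids. The lists of haploid-specific, a-specific and alpha-specific genes all had low means in BY, RM and hybrid diploids. Of the a-specific genes, MFA1 still read 9.64 in BY diploids and 9.31 in RM diploids, beside 9.60 in BY haploids. Ploidy and mating-type state therefore cannot be told apart between haploids and diploids. Array medians lay between 7.34 and 7.56. Within groups, arrays correlated at 0.956 or higher over all probe sets, except that mixture replicate 5 had a mean correlation of 0.922 with the other mixtures. On that array 54.4% of the 5656 genes lay below all of the other 5 mixtures and 23.0% above them. Hybrid replicate 6 also stood apart, with 37.4% below the other 5 hybrids and 9.44% above. Results that turn on these arrays are given with and without them. The number of arrays limits the precision.

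With all arrays in the fit, few of the 9 genes passed the threshold. The 6 replicated groups were compared in 10 contrasts with limma, at a Benjamini-Hochberg adjusted p under 0.05 over all 9274 probe sets. Each contrast called 0 or 1 of the 21 member probe sets, and SWI5 and CLB1 were the only genes called, while the same contrasts called from 1.95% to 28.2% of all probe sets. In the test for any difference among the 6 groups, 2 of 21 member probe sets were called, those of SWI5 and CLB1, where 50.1% of all probe sets were called. The median over the 9 genes of the largest difference between any 2 group means was 0.42 on the log2 scale, beside 0.51 over all 5656 genes. Without mixture replicate 5 the same test called 6 of 21 member probe sets, from BUD4 (2 probe sets), CLB1, ALK1, SWI5 and CLB2, beside 62.7% of all probe sets. Leaving out hybrid replicate 6 as well gave 7, the added one being that of HST3, beside 63.6% of all. Counted by gene, 2 of 9 were called with all arrays, beside 51.8% of all 5656 genes. Without mixture replicate 5 it was 5 of 9, and without both 6 of 9. The share of all genes, with 1 probe set each, was not counted for these last fits. The count of members called thus depended on these arrays. By probe set, the share of members called stayed below that of all probe sets in each of these fits.

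**Figure D1:**
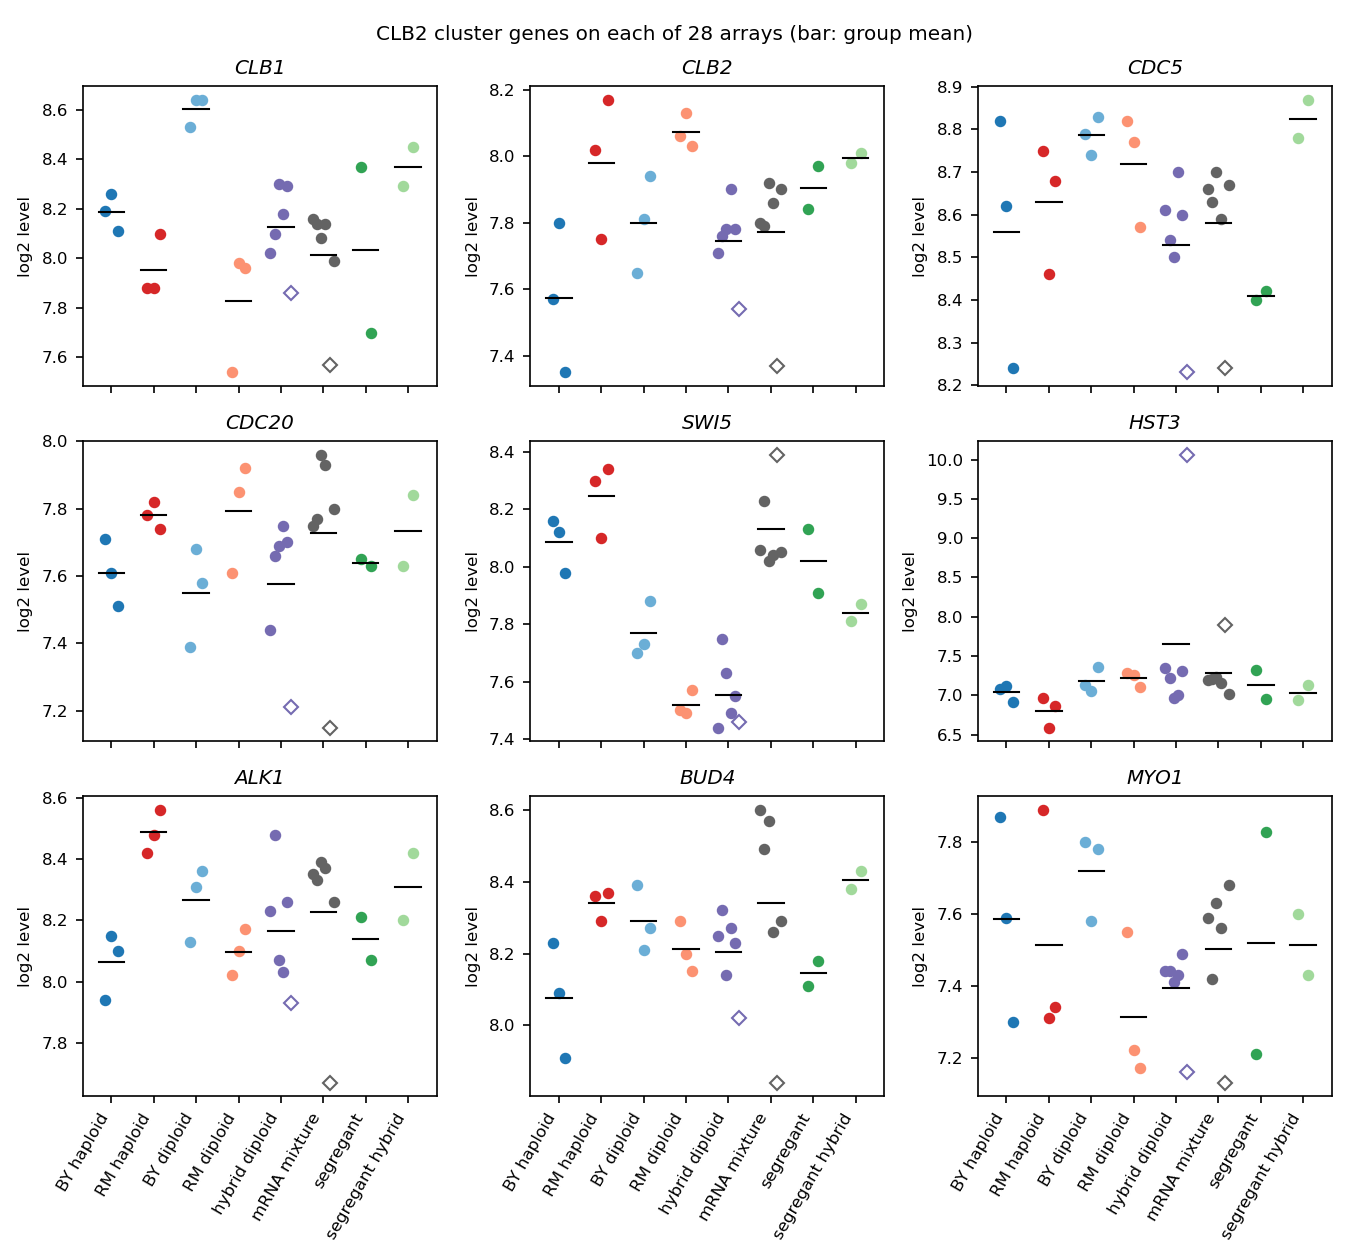
Log2 level (vertical axis, each panel with its own range) of the 9 member genes on each of the 28 arrays, by group along the horizontal axis. Points are arrays and bars are group means. The open diamonds are mixture replicate 5 and hybrid replicate 6, the latter at 10.06 for HST3. In the SWI5 panel all haploid arrays lie above all diploid arrays, and in the CLB1 panel BY diploids lie highest.

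SWI5 (YDR146C) encodes the zinc finger transcription factor that enters the nucleus at the end of mitosis and activates genes of early G1. Its log2 level was 8.16, 8.12 and 7.98 on the BY haploid arrays and 8.30, 8.10 and 8.34 on the RM haploid arrays. On the diploid arrays it was 7.70, 7.73 and 7.88 for BY and 7.50, 7.49 and 7.57 for RM. Each set of diploids lay wholly below the haploids of its own strain. The 6 hybrid arrays ran from 7.44 through a median of 7.52 to 7.75, and the 6 mixtures from 8.02 through a median of 8.06 to 8.39. The hybrids and the mixtures did not overlap, and the mixtures stood with the haploids.

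SWI5 fell by 0.73 ± 0.11 (SE, n = 3 and 3) from RM haploids to RM diploids, a 1.65-fold lower level (95% interval of the log2 difference -0.96 to -0.49, limma adjusted p = 0.000132). It was the 1 call among the 21 member probe sets in that contrast, in which 8.24% of all probe sets were called. In BY the difference was -0.32 ± 0.11 (95% interval -0.55 to -0.08), with an adjusted p of 0.132 in limma. That value went past the threshold when arrays were scaled alike by quantiles (-0.42, adjusted p = 0.00662) or by their medians (-0.42, adjusted p = 0.0123), and also without mixture replicate 5 (-0.32, adjusted p = 0.0479). The deposited scale put the median of all probe sets 0.11 higher in BY diploids than in BY haploids, and 0.01 higher after median centring. The difference between the strains in this contrast of diploids with haploids, -0.41 ± 0.16, was not called (limma interaction, adjusted p = 0.294). A larger fall in RM than in BY was thus not shown.

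SWI5 was also lower in hybrids than in mixtures, by 1.49-fold. It fell by 0.58 ± 0.08 (SE, n = 6 and 6, limma adjusted p = 5.8e-06), the 1 call among the 21 member probe sets in a contrast that called 28.2% of all probe sets. Hybrids minus the mean of the parental diploids came to -0.10 ± 0.08 (adjusted p = 0.425), and mixtures minus the mean of the parental haploids to -0.04 ± 0.08 (adjusted p = 0.826). RM minus BY was 0.16 ± 0.11 in haploids (adjusted p = 0.394) and -0.25 ± 0.11 in diploids (adjusted p = 0.154), and none of these 4 values passed the threshold. Both SWI5 calls held in every alternative run.

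Over the whole set of arrays with a labelled ploidy, the 6 haploids lay between 7.98 and 8.34 and the 14 diploids, hybrids of segregants included, between 7.44 and 7.88. No other member separated the haploid from the diploid arrays in this way. Of all 9274 probe sets, 138 (1.49%) were lower on every diploid than on every haploid array, and 49 (0.528%) were higher on every one. The 8 mixture and segregant arrays, which carry no ploidy label but had haploid levels of the haploid markers, lay between 7.91 and 8.39. The segregant hybrids gave 7.81 and 7.87, at the upper end of the diploids, and the segregants 8.13 and 7.91.

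Of 4 stress genes 1 was called in each contrast in which SWI5 stood apart, and their part in the SWI5 difference was not tested. The summed linear level of 4 stress genes (CTT1, HSP12, HSP26 and DDR2) ran from 14996 to 19896 in RM haploids and from 5523 to 6948 in RM diploids. In the limma fit 1 of these 4 was lower in RM diploids and none was higher, beside 7.64% of all 5656 genes called. In BY haploids the sum ran from 4650 to 6053 and in BY diploids from 2467 to 2759. Again 1 of 4 was called lower, beside 3.50% of all genes. In hybrids the sum ran from 4795 to 25921 and in mixtures from 8168 to 14608. There 1 of 4, CTT1, was called higher in hybrids, beside 32.8% of all genes.

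CLB1 and CLB2 encode a closely related pair of B-type cyclins that bind Cdc28 to drive mitosis, Clb2 being the major form. CLB1 (YGR108W) had log2 levels of 8.53, 8.64 and 8.64 on the BY diploid arrays and of 7.54, 7.98 and 7.96 on the RM diploid arrays. Haploids gave 8.19, 8.26 and 8.11 for BY and 7.88, 7.88 and 8.10 for RM. In either ploidy every BY array lay above every RM array. Hybrids ran from 7.86 through a median of 8.14 to 8.30, wholly below BY diploids and overlapping RM diploids. Mixtures ran from 7.57 through a median of 8.11 to 8.16.

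CLB1 was lower in RM than in BY diploids by 1.71-fold. The difference was -0.78 ± 0.15 (SE, n = 3 and 3, 95% interval -1.09 to -0.47, limma adjusted p = 0.000533), the 1 call among the 21 member probe sets where 17.2% of all probe sets were called. Hybrids fell by 0.48 ± 0.13 below BY diploids (limma adjusted p = 0.00978), again the 1 member called, where 23.1% of all probe sets were. Hybrids minus RM diploids was 0.30 ± 0.13 (adjusted p = 0.134, and 0.0455 without mixture replicate 5), and hybrids minus the mean of the parents was -0.14 ± 0.11 (adjusted p = 0.382). Both CLB1 calls held in every alternative run. CLB1 had 1 probe set, on an array designed from the reference genome. Whether RM sequence under its probes lowered the signal was not tested. Of the 4 stress genes, 2 were higher in RM than in BY diploids, beside 18.3% of all 5656 genes called. The summed linear levels of the 4 were 5523 to 6948 against 2467 to 2759. All 4 were higher in hybrids than in BY diploids, beside 28.4% of all genes. Their part in the CLB1 difference was not tested.

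Among haploids the CLB1 strain difference was -0.23 ± 0.15 (adjusted p = 0.337), and its difference from that in diploids, -0.54 ± 0.21, was not called (limma interaction, adjusted p = 0.289). BY diploids minus BY haploids was 0.42 ± 0.15 (adjusted p = 0.132, and 0.0325 without mixture replicate 5), and these groups did not overlap. RM diploids and haploids overlapped, with a difference of -0.13 (adjusted p = 0.739).

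CLB2 (YPR119W) was ordered the other way by strain. Its log2 level was 7.57, 7.80 and 7.35 in BY haploids and 8.02, 7.75 and 8.17 in RM haploids, and 7.65, 7.81 and 7.94 in BY diploids against 8.06, 8.13 and 8.03 in RM diploids. The RM arrays lay above the BY arrays in diploids, and the haploids overlapped at 1 array of each. RM minus BY was 0.41 ± 0.14 in haploids (limma adjusted p = 0.0548) and 0.27 ± 0.14 in diploids (adjusted p = 0.231), so neither passed the threshold. The haploid value passed in 7 of 13 alternatives, among them quantile normalization (0.40, adjusted p = 0.0248) and leaving out mixture replicate 5 (0.41, adjusted p = 0.0154), BY haploid replicate 2 (0.52, adjusted p = 0.0250) or RM haploid replicate 2 (0.52, adjusted p = 0.0212). Hybrids ran from 7.54 through a median of 7.77 to 7.90, and hybrids minus RM diploids was -0.33 ± 0.13 (adjusted p = 0.0865, and 0.0276 without mixture replicate 5).

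The log2 difference between the CLB1 and CLB2 signals of an array therefore followed strain. It lay between 0.46 and 0.76 in BY haploids and between 0.70 and 0.88 in BY diploids. In RM it lay between -0.14 and 0.13 in haploids and between -0.52 and -0.07 in diploids. Hybrids ran from 0.28 to 0.52 and overlapped BY haploids, and mixtures ran from 0.09 to 0.36 and overlapped RM haploids. The segregants gave 0.53 and -0.27, one within the BY haploid range and one below the RM haploid range. This difference compares the change of each probe set across arrays, and says nothing about which cyclin had more mRNA. It was chosen after the values were seen and carries no test. Whether RM sequence under the probes of either gene changed it was not tested.

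ALK1 encodes a kinase related to haspin. Its log2 level was 8.42, 8.48 and 8.56 in RM haploids, above the 7.94, 8.15 and 8.10 of BY haploids, the 8.13, 8.31 and 8.36 of BY diploids and the 8.02, 8.10 and 8.17 of RM diploids. RM haploids thus stood above every array of the other 3 parental groups. The difference from BY haploids was 0.42 ± 0.16 (limma adjusted p = 0.0685), and RM diploids minus RM haploids was -0.39 ± 0.16 (adjusted p = 0.157). With mixture replicate 5 left out both passed, at 0.00843 and 0.0259, and so did the interaction of strain and ploidy, -0.59 ± 0.16 at 0.0456. With all arrays the interaction had an adjusted p of 0.248. In haploids 0 of the 21 member probe sets were called between strains, 2 having an unadjusted p under 0.05, where 18.0% of all probe sets were called. Leaving out mixture replicate 5 brought in ALK1 and CLB2, beside 24.2% of all probe sets.

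HST3 encodes a histone deacetylase of the sirtuin family that removes the acetyl group from newly made histone H3 after S phase. Its log2 level was 7.08, 7.12 and 6.92 in BY haploids, 6.96, 6.59 and 6.86 in RM haploids, 7.13, 7.06 and 7.36 in BY diploids and 7.29, 7.26 and 7.11 in RM diploids. RM diploids lay wholly above RM haploids. The mixtures ran from 7.02 through a median of 7.20 to 7.90, with the highest on replicate 5. Of the hybrids, 5 lay between 6.97 and 7.35 and replicate 6 was at 10.06.

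The level of HST3 on hybrid replicate 6 had no counterpart elsewhere in the series. On that array 77 of 9274 probe sets, and 3 of the 60 control probe sets, stood more than 2 above all other hybrids on the log2 scale. Below all other hybrids lay 7 of the 9 member genes, beside 37.4% of all 5656 genes. The mean log2 level of 10 other G2/M genes was 7.68 there, below the 7.87 to 7.92 of the other hybrids, and the stress, G1/S and histone lists were inside their range. The limma difference of hybrids from BY diploids for HST3 was 0.47 ± 0.42 with that array (adjusted p = 0.465) and -0.01 ± 0.15 without it (adjusted p = 0.968). With both mixture replicate 5 and hybrid replicate 6 left out, RM diploids exceeded RM haploids by 0.42 ± 0.12 (adjusted p = 0.0227), a value that was not called with all arrays.

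CDC5 and CDC20 encode the polo kinase and the activator of the anaphase-promoting complex that starts anaphase. Group means of CDC5 lay between 8.53 (SD 0.16, n = 6) in hybrids and 8.79 (SD 0.05, n = 3) in BY diploids, and those of CDC20 between 7.55 (SD 0.15, n = 3) in BY diploids and 7.79 (SD 0.16, n = 3) in RM diploids. All 6 groups of CDC5 overlapped their neighbours in the order of means, and so did those of CDC20. Neither was called in any contrast with all arrays. The widest contrast of CDC5 was hybrids minus BY diploids at -0.26 (95% interval -0.52 to 0.01, adjusted p = 0.156). For CDC20 the group means furthest apart, those of BY and RM diploids, did not differ past the threshold. Hybrids minus RM diploids for CDC20 was -0.22 (95% interval -0.52 to 0.09, adjusted p = 0.338). When mixture replicate 5 was left out, CDC20 was lower in hybrids than in mixtures (limma log2 difference -0.27, adjusted p = 0.0344), but with hybrid replicate 6 also left out it was not called (-0.19, adjusted p = 0.0865).

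BUD4 marks the old division site for axial budding, the pattern of haploid cells, and MYO1 encodes the myosin II heavy chain of the contractile ring. Group means of BUD4 lay between 8.08 (SD 0.16, n = 3) in BY haploids and 8.34 (SD 0.28, n = 6) in mixtures. Neither haploid group stood apart from its diploids, and RM minus BY haploids was 0.26 ± 0.15 (adjusted p = 0.253). Group means of MYO1 lay between 7.31 (SD 0.21, n = 3) in RM diploids and 7.72 (SD 0.12, n = 3) in BY diploids. The arrays of these last groups did not overlap, with a difference of -0.41 ± 0.17 (limma adjusted p = 0.108, and 0.0459 with mixture replicate 5 and hybrid replicate 6 both left out). BUD4 was lower in hybrids than in mixtures once mixture replicate 5 was left out (limma log2 difference -0.24, adjusted p = 0.0294), a call lost with hybrid replicate 6 also left out (-0.20, adjusted p = 0.0700).

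**Figure D2:**
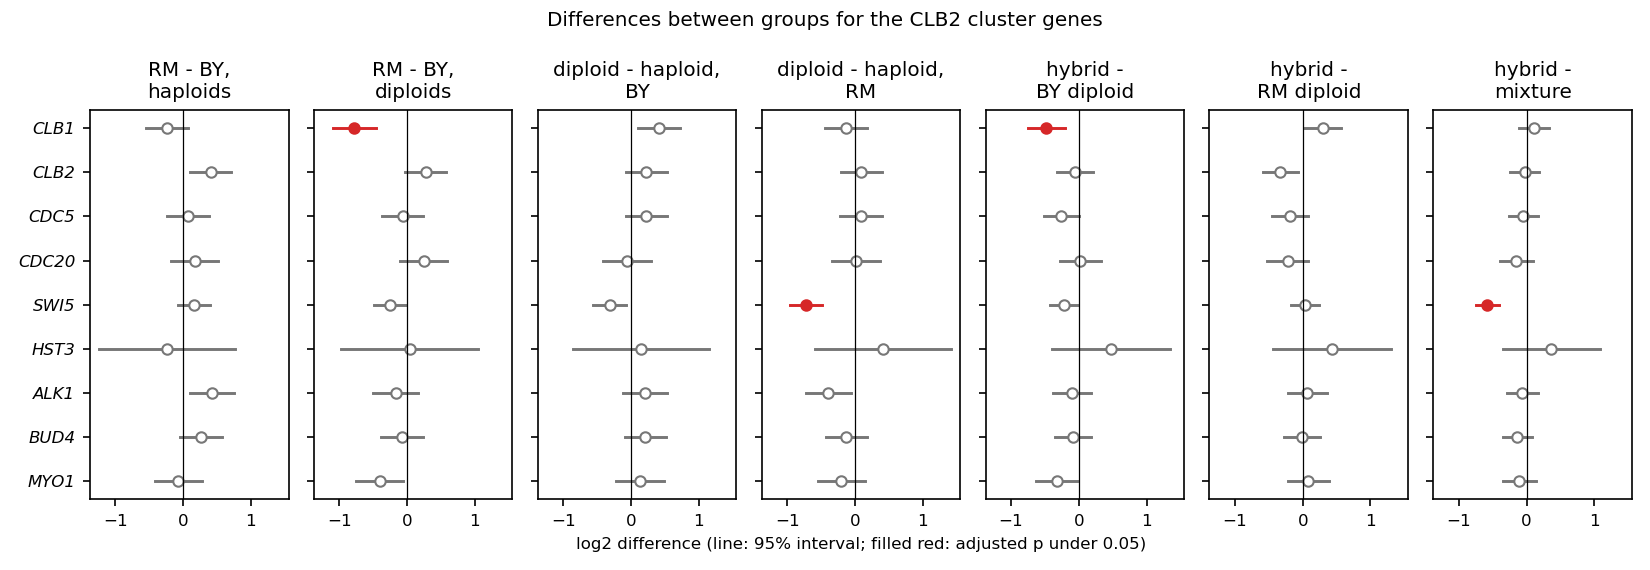
Log2 difference with its 95% interval (horizontal axis) for the 9 member genes (vertical axis) in 7 contrasts, 1 panel each, from the limma fit on 24 arrays. Filled red points passed an adjusted p of 0.05. SWI5 in RM ploidy and in hybrids against mixtures, and CLB1 between diploid strains and in hybrids against BY diploids, are the 4 that were called, and HST3 has the widest intervals.

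The other contrasts called no member. The interaction of strain and ploidy called 0 of 21 member probe sets, with 3 at an unadjusted limma p under 0.05, where 1.95% of all were called. The ploidy contrast in BY called 0, with 2 at an unadjusted p under 0.05, beside 6.35% of all. Hybrids against RM diploids called 0, with 2 at an unadjusted p under 0.05, beside 12.5%. Hybrids against the mean of the parental diploids called 0, with 1 at an unadjusted p under 0.05, beside 18.1%, and mixtures against the mean of the parental haploids called 0, with 3 at an unadjusted p under 0.05, beside 8.53%. Medians over the 9 genes in the 10 contrasts lay between -0.33, for the interaction, and 0.20, for ploidy in BY, where the medians over all 5656 genes were -0.07 and 0.13.

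The fit without mixture replicate 5 called more, among members and over the array alike. Hybrids against RM diploids called 4 of the 21 member probe sets, beside 22.8% of all. These were CLB1, higher in hybrids, CLB2, lower, and 2 further probe sets of BUD4, also lower. Ploidy in RM called 3 (SWI5 and ALK1 lower and 1 further probe set of BUD4 higher in diploids), beside 12.6%, and ploidy in BY called 2 (CLB1 higher and SWI5 lower), beside 8.66%. Hybrids against mixtures called 3 (SWI5, BUD4 and CDC20, all lower), beside 30.0%, and with hybrid replicate 6 also left out 1 of these, SWI5, was called. The interaction called 1 (ALK1), beside 3.19%, and hybrids against the mean of the parental diploids called 1, a further probe set of BUD4, beside 28.6%. CLB1 was the 1 call between the diploid strains, beside 23.3%, and between hybrids and BY diploids, beside 31.7%. Mixtures against the mean of the parental haploids called 0, beside 11.1%.

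The further probe sets of BUD4 and MYO1 did not always follow the one that named the gene. Over 24 arrays the 5 further BUD4 probe sets correlated with the naming one at -0.49 to 0.12, and without mixture replicate 5 at -0.15 to 0.48. On that array the 5 read 8.41, 8.91, 8.93, 8.86 and 8.61, the highest of their mixtures, while the naming probe set read 7.84, the lowest. The 7 further probe sets of MYO1 correlated with the naming one at 0.11 to 0.78 over 24 arrays and at -0.04 to 0.76 without mixture replicate 5. These correlations describe arrays that share groups and carry no test. No further probe set of either gene was called in the fit with all arrays.

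**Figure D3:**
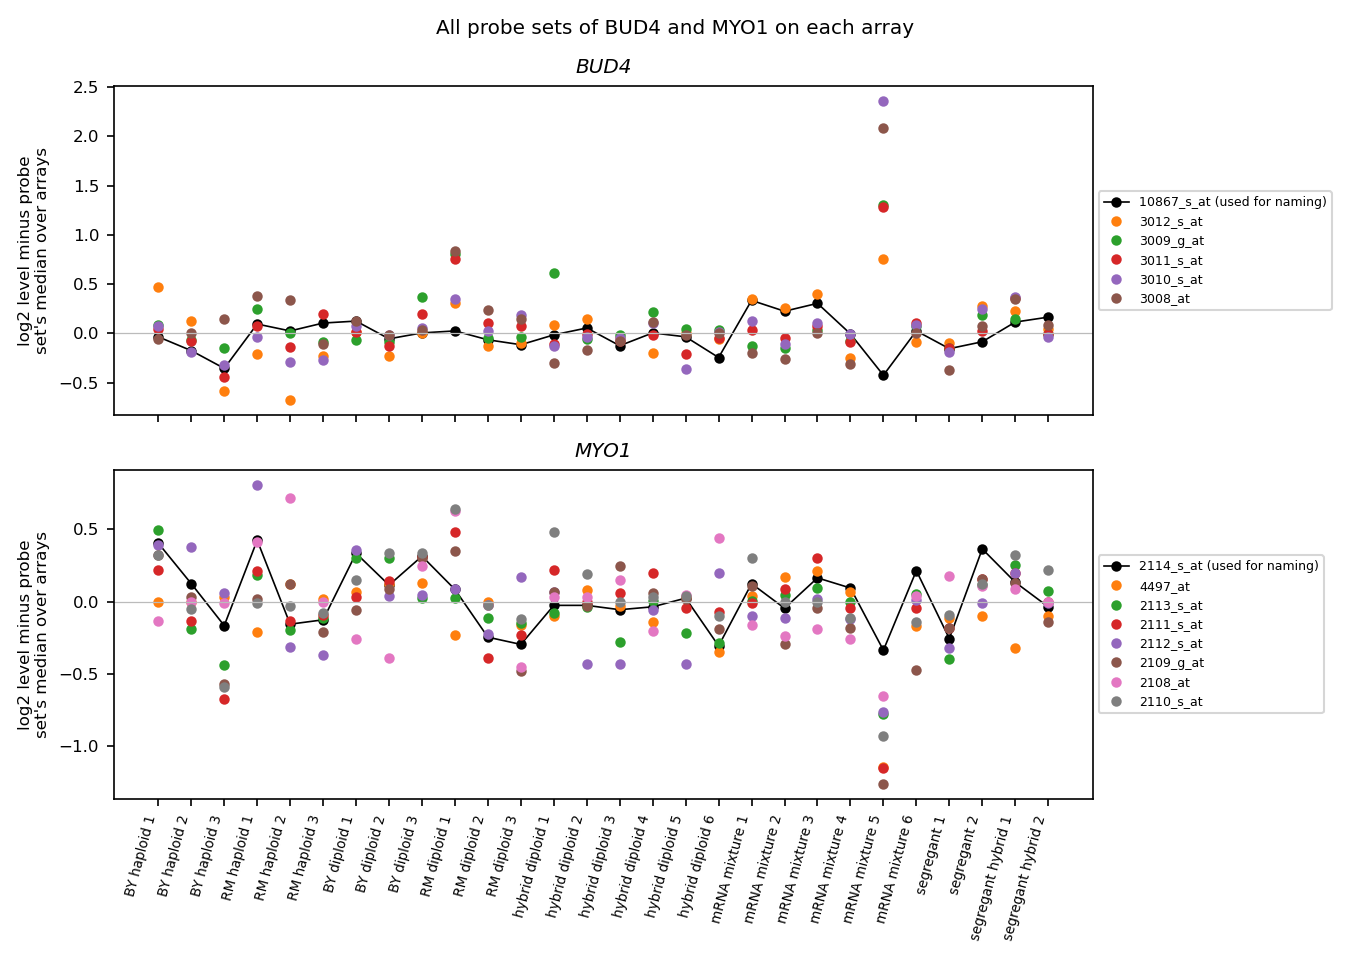
Log2 level minus each probe set's median over arrays (vertical axis) for the 6 BUD4 and 8 MYO1 probe sets on the 28 arrays (horizontal axis), with 1 colour per probe set and a black line through the one that named the gene. On mixture replicate 5 the further BUD4 probe sets stand above their medians while the one that named BUD4, at a level of 7.84, stands below its own.

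Correlations between members within groups differed from pair to pair. After each group's mean was taken away, 21 of the 36 pairs of member genes had a positive correlation over 24 arrays, with a median of 0.41 and a range of -0.63 to 0.84. The highest was that of CLB1 and CDC20, followed by CDC5 and MYO1 at 0.83, and the lowest was that of CDC20 and HST3. Without mixture replicate 5 and hybrid replicate 6 the median was 0.25, the range -0.39 to 0.76, and 26 pairs were positive. The arrays share their scaling, and the values are a description. Pairs of other genes were not taken for comparison, so a correlation particular to the members is not shown.

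The mean profile of the 9 genes was compared with every other gene of 5197 by Pearson correlation over 24 arrays. The genes with the most similar levels were BNI1 (0.78), DBR1 (0.76), PRP16 (0.76), FPS1 (0.75) and CLF1 (0.75). With mixture replicate 5 left out SML1 came first at 0.76, followed by BNI1 at 0.75 and FPS1 at 0.73. Within-group deviations gave other genes, led by TYR1 at 0.88. Without mixture replicate 5 the deviations were led by ADH6 at 0.77, and TYR1 was not among the first 5.

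Over all 5656 genes the share inside the parents' range was 74.5% in segregant 1, 74.2% in segregant 2, 76.5% in segregant hybrid 1 and 74.0% in segregant hybrid 2. Segregant 1 was inside the range of the 6 parental haploid arrays for 6 of the 9 genes, above it for CLB1 (8.37) and HST3 (7.32) and below it for MYO1 (7.21). Segregant 2 was inside for 7 and below for CLB1 (7.70) and SWI5 (7.91). CLB1 thus lay outside the parents' range on either side in the 2 segregants. Segregant hybrid 1 was inside the range of the 6 parental diploid arrays for 8 genes and below it for HST3 (6.94), and segregant hybrid 2 was inside for 6 and above it for CDC5 (8.87), ALK1 (8.42) and BUD4 (8.43).

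For the genes around the cluster, 1 probe set stood for each gene, and the share of all 5656 genes called was then 17.4% between the haploid strains, 18.3% between the diploid strains and 1.82% for their interaction. It was 3.50% for ploidy in BY and 7.64% for ploidy in RM. For hybrids it was 28.4% against BY diploids, 10.9% against RM diploids, 21.9% against the mean of the parental diploids and 32.8% against mixtures, and for mixtures against the mean of the parental haploids it was 4.51%. Among the 6 groups 51.8% differed. The counts below are from the fit with all arrays unless another is named. The shares of all probe sets called without mixture replicate 5 are those given above.

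Of the cluster's 4 regulators, FKH1 and FKH2 were called among the groups and MCM1 and NDD1 were not. FKH1, the forkhead relative of FKH2 that also acts at these promoters, lay between 7.57 and 7.87 in BY diploids and between 7.04 and 7.22 in RM diploids, with no overlap. It was lower in RM diploids, as CLB1 was, with a difference of -0.54 ± 0.15 (limma adjusted p = 0.0107). FKH2 ran from 7.10 to 7.56 in hybrids, wholly below the 7.66 to 7.93 of BY diploids and the 7.57 to 7.84 of RM diploids. It was lower in hybrids than in the mean of the parental diploids, with a difference of -0.36 ± 0.10 (limma adjusted p = 0.0135). For NDD1, RM minus BY diploids was -0.38 ± 0.17 (adjusted p = 0.151), and for MCM1 hybrids minus mixtures was -0.28 ± 0.11 (adjusted p = 0.0704). Without mixture replicate 5, 2 of the 4 regulators were called lower in RM than in BY diploids. In that fit 2 of the 4 were also lower in hybrids than in BY diploids, and 1 was lower in hybrids than in RM diploids.

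A further list held 10 measured genes transcribed in G2 and mitosis. Between RM and BY haploids 2 of the 10 were higher in RM, MOB1 (0.54 ± 0.16, limma adjusted p = 0.0151) and BUD8 (0.52 ± 0.12, adjusted p = 0.00305). MOB1 binds the mitotic exit kinase Dbf2, and BUD8 marks the distal pole of the cell. Between RM and BY diploids 2 were lower in RM, BUD3 (-0.75 ± 0.14, adjusted p = 0.000459) and IQG1 (-0.59 ± 0.15, adjusted p = 0.00782), of which BUD3 acts with BUD4 in axial budding and IQG1 is a scaffold of the contractile ring. BUD3 also fell in RM diploids against RM haploids, by 0.65 ± 0.14 (adjusted p = 0.00362), together with BUD8, so that 2 of 10 fell there as SWI5 did. Hybrids had 1 of the 10 lower than BY diploids, 1 higher than RM diploids and 1 lower than the mean of the parental diploids. The first of these was BUD3 (-0.49, limma adjusted p = 0.00587), whose other probe set was not called (-0.36, adjusted p = 0.140). In hybrids against mixtures 3 of 10 were lower, among them BUD3 (-0.59 ± 0.10, adjusted p = 9.2e-05), and 1 was higher. Without mixture replicate 5, 3 were lower and 0 higher there. That fit also called 1 gene lower in RM than in BY haploids and 2 higher in RM than in BY diploids. It called 1 for the interaction.

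The kinase partners and the degradation machinery of mitosis gave few calls with all arrays in the fit. Of Cdc28 itself and 7 of its partners and regulators, the S-phase and spindle cyclins CLB3 to CLB6 among them, 0 of 8 were called by limma in each of the 10 contrasts, with 0 to 3 at an unadjusted p under 0.05. In the test for any difference among groups 1 of the 8 was called. Without mixture replicate 5, 1 of the 8 was higher in RM than in BY haploids. In that fit hybrids against BY diploids, against the mean of the parental diploids and against mixtures each called 1 lower. These contrasts then called 24.2% to 31.7% of all probe sets. Of 21 genes of the anaphase-promoting complex and mitotic exit, 3 were lower in RM than in BY diploids, 2 were lower in hybrids than in BY diploids, and 1 was higher in RM than in BY haploids. That last gene was APC1, whose 6 further probe sets were not called. One was also higher in mixtures than in the mean of the haploids. The other 6 contrasts called 0, with 0 to 3 at an unadjusted limma p under 0.05. Leaving out mixture replicate 5 gave 5 of the 21 lower in RM than in BY diploids. It gave 4 lower and 1 higher in hybrids than in BY diploids. It also brought in 1 higher in hybrids than in RM diploids and 1 lower than the mean of the parental diploids. In mixtures 1 was then lower than the mean of the haploids.

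Genes transcribed from the end of mitosis into early G1 include Swi5 targets such as SIC1 and genes of cell separation. Of 13 measured, 9 were lower and 1 was higher in RM than in BY haploids, with a median difference of -0.93 beside 0.07 over all 5656 genes. CTS1, the chitinase that separates daughter from mother, had a difference of -3.58 ± 0.14 (limma adjusted p = 3.0e-15), DSE2, a daughter cell glucanase, of -3.32 ± 0.13 (adjusted p = 9.0e-16) and SCW11, a cell wall glucanase, of -2.66 ± 0.16 (adjusted p = 7.1e-12), RM being lower in each. CTS1 had 12.30 to 12.55 in BY haploids and 8.71 to 9.05 in RM haploids, while SWI5 overlapped between these groups. SIC1, the Cdc28 inhibitor activated by Swi5, had a difference of -0.40 ± 0.14 that was not called, and the Swi5 target PCL9, a cyclin of early G1, was higher in RM by 0.46 ± 0.11 (adjusted p = 0.00420).

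In RM diploids against RM haploids 7 of the 13 rose and 1 fell, whereas SWI5 fell. DSE2 rose by 2.72 ± 0.13 (limma adjusted p = 1.5e-13), CTS1 by 2.56 ± 0.14 (adjusted p = 9.2e-12) and PRY3, a cell wall protein, by 1.99 ± 0.13 (adjusted p = 6.1e-11), and the 1 that fell was AMN1, an inhibitor of mitotic exit in daughters (-0.55 ± 0.11, adjusted p = 0.00237). The median was 0.41, beside 0.05 over all genes. In BY diploids against BY haploids 2 rose and 1 fell, with PRY3 up by 1.33 ± 0.13 (adjusted p = 3.9e-08) and AMN1 down (-0.86 ± 0.11, adjusted p = 5.7e-06), and CTS1 had a difference of 0.00 ± 0.14. Between the diploid strains 8 of 13 were lower in RM, among them CTS1 (-1.02 ± 0.14, adjusted p = 1.1e-05) and SIC1 (-0.42 ± 0.14, adjusted p = 0.0431).

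Hybrids were below BY diploids in 10 of the 13 and above in none, and below RM diploids in 2. Against the mixtures, where SWI5 was lower, 5 of 13 fell and 2 rose. AMN1 fell by 1.24 ± 0.08 (limma adjusted p = 2.3e-11) and SIC1 by 0.47 ± 0.10 (adjusted p = 0.00106), and PRY3 rose by 0.73 ± 0.09 (adjusted p = 7.8e-07). ASH1, whose product acts in daughter cells and is a target of Swi5, had means between 9.29 and 9.74 in the 4 parental groups and was not called in these contrasts. Stress genes moved between the haploid strains as well, with 3 of 4 higher in RM and 1 lower, beside 17.4% of all genes called. Their summed linear levels were 14996 to 19896 in RM against 4650 to 6053 in BY haploids. The part of the stress genes in these differences was not tested.

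**Figure D4:**
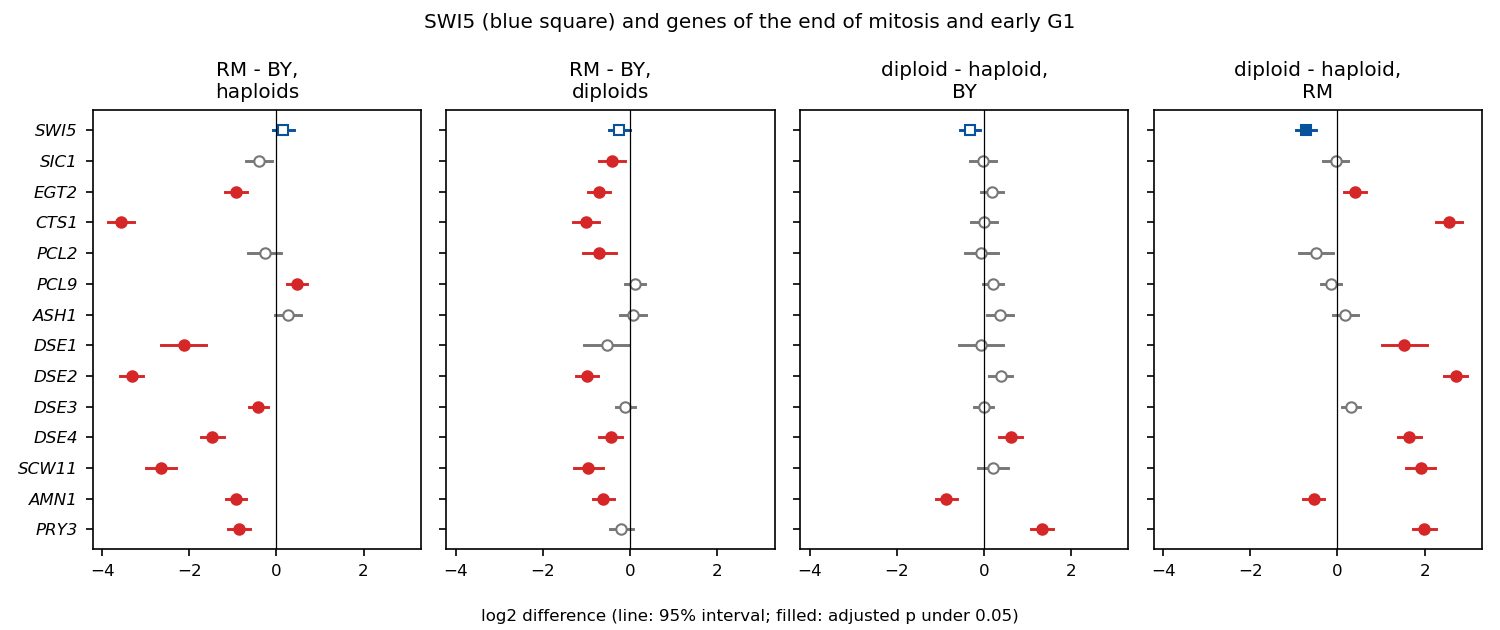
Log2 difference (horizontal axis) of SWI5 (squares) and of the 13 genes transcribed from the end of mitosis into early G1 (circles) for strain and ploidy, 1 panel per contrast, with 95% intervals from the limma fit on 24 arrays. Filled points passed an adjusted p of 0.05. In RM ploidy CTS1 lies at 2.56 and DSE2 at 2.72, and SWI5 lies at -0.73.

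Of 9 Mcm1 targets at the border of mitosis and G1, 1 was higher (the G1 cyclin CLN3, 0.84 ± 0.15) and 1 lower in RM than in BY haploids. Between the diploid strains 0 were called (1 at an unadjusted limma p under 0.05). In BY, 1 was higher in diploids than in haploids, beside 3.50% of all genes called. In hybrids 1 was lower than in BY diploids, 1 was lower than the mean of the parental diploids and 1 was higher than in mixtures. Of 8 G1/S genes 0 were called between the haploid strains (1 at an unadjusted p under 0.05). Between the diploid strains 1 of the 8 was lower in RM, beside 18.3% of all genes. In hybrids 1 was higher and 3 were lower than in BY diploids, beside 28.4% of all genes called, 1 was higher and 2 were lower than the mean of the parental diploids, beside 21.9%, and 2 were lower than in mixtures. CLN2, a G1 cyclin, fell in RM diploids against RM haploids by 0.56 ± 0.14 (limma adjusted p = 0.00797) and fell in hybrids against mixtures by 0.86 ± 0.10 (adjusted p = 2.1e-07), the contrasts in which SWI5 also fell. Without mixture replicate 5, the G1/S list had 1 higher and 4 lower in hybrids than in mixtures. It had 1 higher and 3 lower than the mean of the parental diploids, and 1 lower in RM than in BY haploids. Of 8 histone genes 2 were measured. With all arrays 1 was called higher in RM haploids, 1 lower in RM diploids and 1 lower in hybrids than in BY diploids.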

How the data were processed

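Each deposited value was the level of a probe set, taken as log2 because no value exceeded 14.67. The sources used here do not give how the authors summarised and scaled the arrays, and the values came without detection calls. Columns without a sample numbered 0. Of 9335 probe sets, 60 controls and 1 at 0 on every array were left out. The platform annotation gave 1 gene to 6504 of the others, several to 328 and none to 2442, and all 6504 matched the R64 annotation by gene identifier. The array design follows the reference genome, and whether RM sequence under the probes lowered a signal was not tested.

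The main model was a limma 3.58.1 fit (R 4.3.3) of 6 group means to 24 arrays, two-sided, and p-values were adjusted by Benjamini-Hochberg over the 9274 tested at a threshold of 0.05. Segregant arrays stayed out of it. Parental means were taken on the linear scale and given a standard error by the delta method. Differences are log2 values ± SE. The members, gene lists and tests were chosen with earlier results of these data known. All members are named, with other genes from the lists of regulators, other G2/M genes, Cdc28 partners, anaphase-promoting complex and mitotic exit, 13 genes of the end of mitosis and early G1, Mcm1 targets, G1/S genes and histones. Of the histone genes listed, 6 had no probe set of their own. A listed item is not reported here.

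The fit was tested on simulated data. It was repeated with arrays scaled by quantiles or by medians, with the dimmest 25% of probe sets removed, with all 28 arrays, with a replicate block, with parental means on the log2 scale, and with single arrays left out in turn. The joint removal of mixture replicate 5 and hybrid replicate 6 was added after seeing the data. Same-numbered arrays of different groups did not deviate together. In no replicate pair did more than 3.00% of probe sets hold the same value. Python 3.11.15 and matplotlib 3.10.9 drew the figures.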

Additional observations from a re-analysis of the deposited data

Results flagged for a closer look

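In groups of 6, an array was singled out when its gap to the nearest other array, as a share of the group's range, exceeded Dixon's critical value at 95%, which chance does in about 1 of 20 groups. Of 42 sets of values from the member probe sets in hybrids and mixtures, 17 were singled out, 15 on mixture replicate 5, 2 on hybrid replicate 6 and 0 on other arrays. On mixture replicate 5 the naming probe sets of CLB1 (7.57), CLB2 (7.37), ALK1 (7.67), CDC20 (7.15) and CDC5 (8.24) were lowest of the mixtures and that of HST3 (7.90) was highest. Over all 5656 genes, 54.4% lay below the other mixtures on that array and 23.0% above them. MYO1 had 5 further probe sets at the low end there, at 4.79, 4.99, 5.20, 6.51 and 6.41, and BUD4 had 4 at the high end, at 8.41, 8.91, 8.93 and 8.86. On hybrid replicate 6, HST3 was at 10.06, against a highest value of 7.35 on the other hybrids, and the MYO1 probe set that named the gene was at 7.16, against a lowest of 7.41.

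The strain difference of 5 genes of cell separation, transcribed from the end of mitosis into early G1, was not the same in diploids and haploids. The limma interaction, the strain difference in diploids minus that in haploids, was 2.56 ± 0.20 for CTS1, 2.33 ± 0.18 for DSE2, 1.70 ± 0.23 for SCW11, 1.60 ± 0.35 for DSE1 and 1.03 ± 0.18 for DSE4 on the log2 scale. For each of them RM was further below BY in haploids than in diploids. SWI5 itself had an interaction of -0.41 ± 0.16 (adjusted p = 0.294).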

How the results depend on the processing

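The calls of SWI5 and CLB1 held in every alternative run, and no member lost a call or changed direction past the threshold; CDC20 and BUD4 passed between hybrids and mixtures without mixture replicate 5 alone and not with hybrid replicate 6 also left out. Counts of called member probe sets that moved were, for the strain contrast in haploids (0 as reported), 2 with quantile normalization, 1 without the dimmest 25% and 1 with all 28 arrays, for that in diploids (1) 2 with quantile normalization, for ploidy in BY (0) 1 with quantile normalization and 1 with median centring, and for hybrids against RM diploids (0) 1 with quantile normalization. Leaving out mixture replicate 5 and hybrid replicate 6 together gave 2, 2, 1, 2, 4, 4, 1, 1 and 7 member probe sets for strain in haploids, strain in diploids, the interaction, ploidy in BY, ploidy in RM, hybrids against RM diploids, hybrids against the midparent, hybrids against mixtures and any difference. Over all probe sets it moved the interaction from 181 to 333, ploidy in RM from 764 to 1311 and hybrids against RM diploids from 1158 to 2042, and quantile normalization moved the interaction to 280. Mixtures against the haploid midparent went from 791 to 442 with quantile normalization, 327 without dim probe sets and 509 with a replicate block.

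Leaving out single arrays gave 0 to 2 member probe sets for strain in haploids (1327 to 2244 over all), 1 to 1 for strain in diploids (1164 to 2157), 0 to 1 for the interaction (121 to 296), 0 to 2 for ploidy in BY (474 to 803), 1 to 3 for ploidy in RM (543 to 1172), 1 to 1 for hybrids against BY diploids (1388 to 2939), 0 to 4 for hybrids against RM diploids (694 to 2114), 0 to 1 for hybrids against the midparent (1174 to 2657), 1 to 3 for hybrids against mixtures (2261 to 2784), 0 to 1 for mixtures against the midparent (292 to 1066) and 2 to 6 for any difference (4194 to 5819). The highest member counts came without mixture replicate 5 for all of these but mixtures against the midparent and strain and hybrid contrasts with BY diploids. The cause was not tested. Median centring moved the share of higher calls from 58.6% to 71.8% for the interaction, 36.7% to 23.6% for ploidy in BY, 42.4% to 56.6% for hybrids against BY diploids and 36.1% to 50.4% for hybrids against the midparent.

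Replicate numbers recur across groups, but deviations of the 45 same-numbered pairs had a median correlation of 0.07 (-0.29 to 0.46), beside -0.02 for 90 pairs of different number, so the pairing was not borne out. With the replicate number as a block, the member counts were those reported.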
